A study of Mus musculus with 399 samples.

Results

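The Nat8f genes of the mouse form a cluster of related N-acetyltransferase genes on chromosome 6. The members described here were Nat8f1, Nat8f2, Nat8f3, Nat8f5, Nat8f6 and Nat8f7, 6 of the 56980 genes in the deposited count table. They were chosen by name, with results of these data in view: Nat8f7 and its neighbours for their rise on a high-fat diet in B6 liver at 20 weeks, and Nat8f6 for a sex difference between the strains on chow at the same age. Those comparisons are therefore given below as descriptions without a test, as are other comparisons that reuse the same B6 livers. The TH chow livers at 20 weeks, also part of the comparison that led to Nat8f6, do enter tested comparisons with the sexes averaged. These are TH diet at 20 weeks, TH age on chow and the TH diet difference between ages. Those tests are thus not independent of the choice of Nat8f6. All 6 members passed the filter on low counts, among 17243 genes tested in liver.

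The study took liver, gonadal fat, soleus muscle and pancreas from male and female mice of 2 inbred strains. B6 is C57BL/6J, the common laboratory strain, and TH is TALLYHO/Jng, a strain bred as a polygenic model of obesity and type 2 diabetes. Every mouse was weaned at 4 weeks, either onto standard chow or onto a high-fat (HF) diet, and was killed at 5 weeks of age (1 week of feeding) or at 20 weeks (16 weeks of feeding). Sex, strain, diet and age gave 16 liver groups of 6 mice each, 96 of the 399 libraries, and the labels name no transgene or drug in any group. The labels number the libraries of a group without saying in so many words that each came from a separate mouse. The column names also carry a number, which differs between the libraries of each liver group. They are called mice below, and p-values measure the spread between these libraries.

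NAT8, the enzyme that gives the family its name, sits in the membrane of the endoplasmic reticulum and acetylates cysteine S-conjugates. This is the last step of mercapturic acid formation, in which glutathione conjugates of drugs and lipid peroxidation products are trimmed and acetylated for excretion in urine, and the kidney proximal tubule is its best known site. Members of the family have also been described as acetylating lysines of proteins inside the endoplasmic reticulum. Rodents carry a larger set of these genes than humans do. In the RefSeq annotation the order along chromosome 6 was Nat8f7, Nat8f3, Nat8f6, Nat8f5, Nat8, Nat8f2, Nat8f4, Nat8f1.

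Nat8f7, Nat8f3 and Nat8f6, which lie side by side, were near-identical copies. The coding sequence was 681 bases in Nat8f7 and Nat8f3 and 678 bases in Nat8f6 (GENCODE M21 transcripts, reference strain). Nat8f7 and Nat8f3 differed at 3 of 681 coding positions, an identity of 99.6%, and Nat8f6 shared 99.1% with Nat8f7 and 99.3% with Nat8f3. All other pairs among the 6 members had a coding identity between 65.4% and 75.4%. The stretches below show how little separates the copies: the last 60 coding bases of Nat8f7 (622 to 681) with the matching end of the other copies, and then coding bases 2 to 61. Capitals mark the positions at which the copies differed, and Nat8f6 lacks the 3 bases that are capitals in the first pair.
Nat8f7: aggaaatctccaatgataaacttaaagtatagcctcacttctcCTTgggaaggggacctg
Nat8f3: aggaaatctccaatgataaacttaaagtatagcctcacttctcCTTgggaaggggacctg
Nat8f6: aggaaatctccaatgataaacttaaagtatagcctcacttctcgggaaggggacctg
Nat8f7: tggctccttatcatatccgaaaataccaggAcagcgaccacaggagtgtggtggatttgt
Nat8f3: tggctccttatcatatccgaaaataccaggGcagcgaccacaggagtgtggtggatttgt
Nat8f6: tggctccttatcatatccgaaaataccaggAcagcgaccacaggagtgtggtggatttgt

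Because of this likeness, reads can fit more than 1 copy. Of the 50-base stretches in the annotated transcripts of Nat8f7, 82.3% also occurred in a transcript of another gene of the cluster, against 68.0% for Nat8f6 and 52.1% for Nat8f3. The shares were 17.9% for Nat8f2 (all of them with Nat8f4), 14.6% for Nat8f1 and 9.28% for Nat8f5. How the authors' counting split or dropped such reads is not given in the sources used here. Separate values for Nat8f3, Nat8f6 and Nat8f7 are therefore uncertain, and their sum is given beside them. TH differs from the reference at sites that were not analysed here, so a strain difference in reads that fit a copy cannot be told apart from a strain difference in its RNA.

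The annotated promoter windows were less uniform than the coding sequences. The 250 bases before the RefSeq start (GRCm38.p6, minus strand) are printed for the 3 copies, which moved together, and for Nat8f5, which had another sex pattern. They lie at chr6:85708562-85708811 for Nat8f7, chr6:85765745-85765994 for Nat8f3, chr6:85809878-85810127 for Nat8f6 and chr6:85820973-85821222 for Nat8f5. Capitals mark matches to the letters searched, written 5′ to 3′ on the gene's strand.
Nat8f7: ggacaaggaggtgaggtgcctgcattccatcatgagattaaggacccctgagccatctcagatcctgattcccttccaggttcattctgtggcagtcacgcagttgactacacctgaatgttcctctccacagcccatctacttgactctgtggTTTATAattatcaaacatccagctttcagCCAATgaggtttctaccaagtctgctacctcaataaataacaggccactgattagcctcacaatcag
Nat8f3: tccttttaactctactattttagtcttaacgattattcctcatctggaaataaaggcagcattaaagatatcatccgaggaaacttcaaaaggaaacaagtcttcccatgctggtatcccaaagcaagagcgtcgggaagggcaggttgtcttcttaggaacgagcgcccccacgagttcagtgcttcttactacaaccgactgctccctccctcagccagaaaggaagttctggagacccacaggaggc
Nat8f6: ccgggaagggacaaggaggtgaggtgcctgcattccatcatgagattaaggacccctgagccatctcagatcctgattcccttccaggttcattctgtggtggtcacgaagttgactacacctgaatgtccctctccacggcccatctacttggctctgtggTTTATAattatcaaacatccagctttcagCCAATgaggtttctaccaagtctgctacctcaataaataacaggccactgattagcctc
Nat8f5: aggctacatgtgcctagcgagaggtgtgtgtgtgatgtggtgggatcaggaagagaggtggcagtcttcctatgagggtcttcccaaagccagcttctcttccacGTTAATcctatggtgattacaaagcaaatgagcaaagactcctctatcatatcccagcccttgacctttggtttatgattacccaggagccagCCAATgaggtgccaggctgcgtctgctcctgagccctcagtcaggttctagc

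Nat8f7 and Nat8f6 had an identity of 91.5% over these windows, while the window of Nat8f3 shared 46.4% with that of Nat8f7, with 124 identical and 109 mismatched bases and 34 gap bases. These values follow the annotated start of each gene as well as the likeness of the sequence: the window of Nat8f3 aligned to that of Nat8 with 154 identical and 2 mismatched bases but 188 gap bases. Both strands were searched for 5 short motifs, and no matches overlapped. The TATA box, TATAAA, was found on the opposite strand, read as TTTATA, 96 bases before the start of Nat8f7 and 88 before that of Nat8f6, and 13.0% of the same windows of 27025 genes held it. The CCAAT box lay 67 bases before the start in Nat8f7, 59 in Nat8f6, 52 in Nat8f5 and 10 in Nat8f2, with a share of 34.5% of all windows. Nat8f5 also held GTTAAT, a half-site of the liver factor HNF1, at 145 bases (6.52% of all windows). The STAT motif TTCNNNGAA and the direct repeat bound by PPAR and HNF4 factors, held by 7.18% and 0.0370% of all windows, were in none of the 6. Nat8f3 and Nat8f1 held none of the 5.

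Liver library totals ran from 6599595 to 17542373 counted reads. Albumin was higher in all 96 liver libraries than in any library of the other tissues, and Xist and Ddx3y matched the labelled sex in all 96. One library, the fourth B6 male on HF at 5 weeks, stood apart, with a spread from its group mean 1.94 times the median library. It had the lowest Nat8f2 and Nat8f1 values of all liver libraries, and counts of 1, 2, 0 and 0 for Nat8f7, Nat8f3, Nat8f6 and Nat8f5. Results were also fitted without it, which ended none of the calls on members. In whole liver, fewer cells of a type and less RNA per cell cannot be told apart.

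In RNA per transcript length, Nat8f2 was the main member and Nat8f1 the second. The median over all 96 livers was 255.7 FPKM for Nat8f2 and 84.1 FPKM for Nat8f1, against 0.770, 0.453, 0.517 and 0.953 FPKM for Nat8f7, Nat8f3, Nat8f6 and Nat8f5. Nat8f2 took a median of 87.2% of the reads counted for the 6 members (range 76.5% to 93.6%). The 3 copies together took from 0.00882% to 5.65%. FPKM is the authors' value, scaled for gene length and library total. All further levels are CPM, counts scaled to the library total, which compare 1 gene between libraries.

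Constancy and change were split between the members. From the lowest to the highest of the 16 group medians the difference was 1.70-fold for Nat8f1 and 1.90-fold for Nat8f2. It was 84.1-fold for Nat8f7, 86.3-fold for Nat8f3 and 89.7-fold for Nat8f6, and 260.4-fold for Nat8f5. Nat8f5 had no read in 10 of 96 libraries, Nat8f6 in 4, and Nat8f3 and Nat8f7 in 1 each. A count of 0 allows up to 3 reads, which was 0.156 to 0.497 CPM at these depths (counting error only).

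In TH mice at 20 weeks, the 3 copies rose on the HF diet in both sexes. Nat8f7 on chow had a lowest, median and highest value of 1.76, 3.00 and 6.5 CPM in females and 0.708, 1.45 and 1.72 CPM in males. On HF these were 12.5, 19.3 and 22.4 CPM in females and 4.08, 5.30 and 7.00 CPM in males. Every HF mouse lay above every chow mouse of its sex. Nat8f3 moved alike, from a median of 2.99 to 19.7 CPM in females and from 1.48 to 5.06 CPM in males. Nat8f6 was lower throughout, with medians of 1.29 and 10.0 CPM in females and 0.870 and 3.47 CPM in males on chow and HF.

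Averaged over the sexes, the fitted change in TH at 20 weeks was 2.18 ± 0.30 on the log2 scale (SE) for Nat8f7, a 4.54-fold rise, with an adjusted p of 7.29e-09 (edgeR quasi-likelihood test, Benjamini-Hochberg over all genes tested). It was 2.09 ± 0.28 for Nat8f3 (adjusted p = 3.25e-09) and 2.04 ± 0.31 for Nat8f6 (adjusted p = 1.27e-07). All 3 calls held under the 12 alternative settings. Of the 6 members, 3 rose and 1 fell, Nat8f2, beside 26.1% of all genes called, 13.6% higher and 12.6% lower. Groups of HF and chow mice did not overlap for the 3 copies in TH females, where 2.03% of all genes had every HF mouse above every chow mouse, and in TH males, where 3.61% did. The sum of the copies in TH females went from a median of 7.2 to 49 CPM, and in males from 3.89 to 13.5 CPM.

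**Figure D1:**
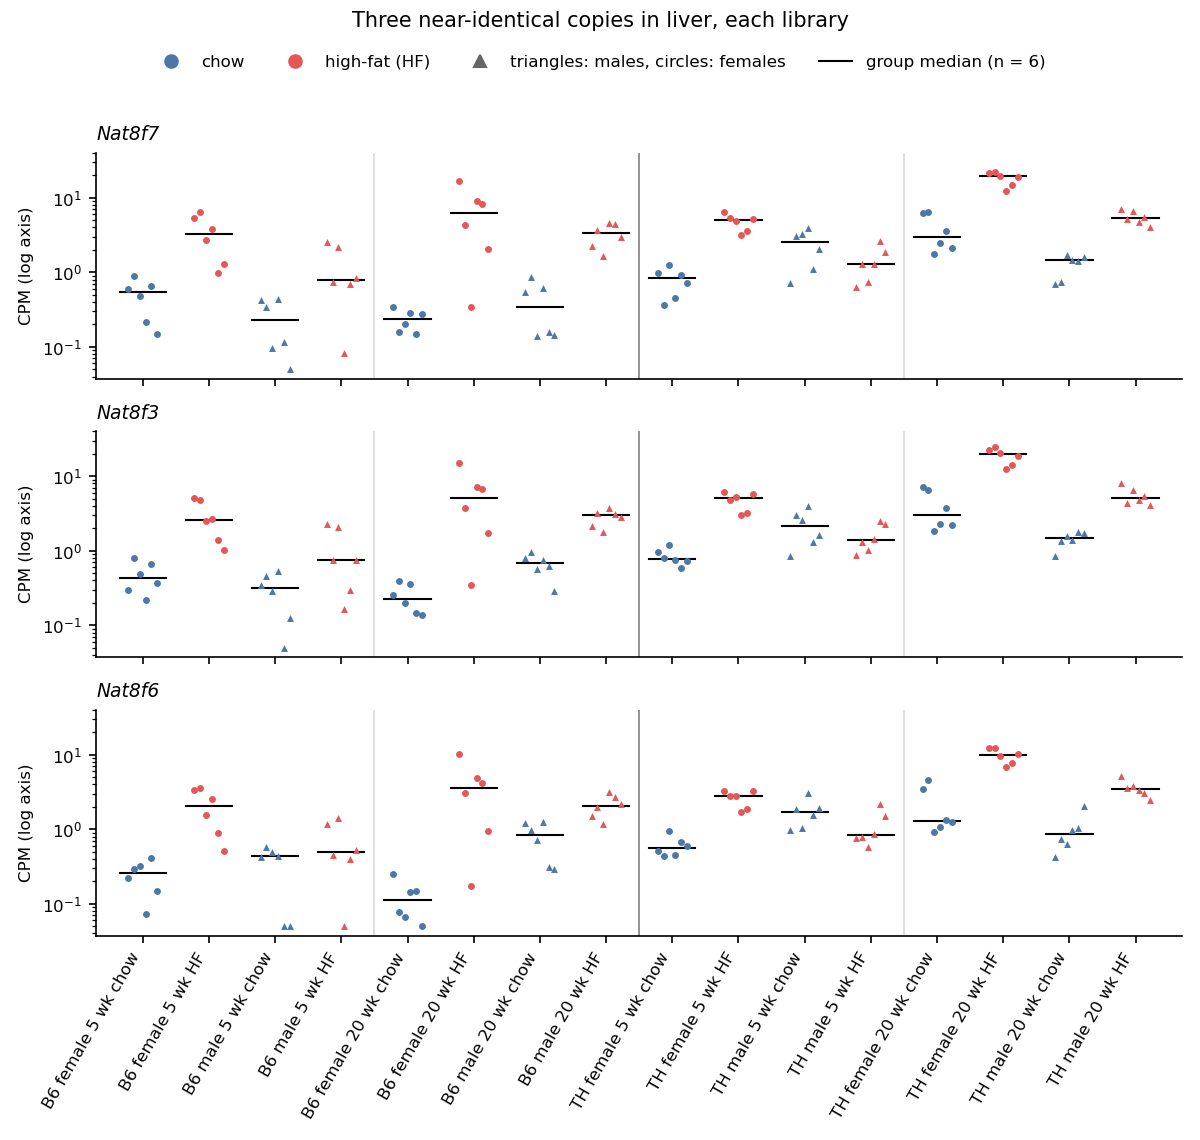
CPM (log axis) of Nat8f7, Nat8f3 and Nat8f6 in each of 96 liver libraries by group, with a bar at the median of 6 mice; values of 0 are drawn at 0.05. The TH females on HF at 20 weeks are the highest group for each copy, with Nat8f7 between 12.5 and 22.4 CPM, and in TH males at 5 weeks the HF median, 1.31 CPM for Nat8f7, lies below the chow median of 2.55 CPM.

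After 1 week of feeding the copies were already higher in B6 mice. B6 females at 5 weeks had a lowest, median and highest Nat8f7 of 0.147, 0.542 and 0.885 CPM on chow and 0.978, 3.29 and 6.53 CPM on HF. All 3 copies had every HF female above every chow female, beside 2.35% of all genes. In B6 males Nat8f7 was between 0 and 0.442 CPM on chow and between 0.0828 and 2.54 CPM on HF, and no copy separated the diets, beside 0.887% of all genes. Over both sexes the change was 2.49 ± 0.43 (log2, SE) for Nat8f7, 2.2 ± 0.40 for Nat8f3 and 2.01 ± 0.44 for Nat8f6, with adjusted p values of 5.04e-06, 1.96e-05 and 0.000364 in the same edgeR test. These were the 3 members called, beside 19.9% of all genes. The diet response did not differ detectably between B6 males and females: for Nat8f6, the copy with the lowest p, the male minus female change was -2.07 ± 0.93 with an adjusted p of 0.56, where 0.174% of all genes were called. None of the 6 members was called there by edgeR or DESeq2, and 1 had an unadjusted p under 0.05.

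In TH mice at 5 weeks the diets were separated in females and not in males. Nat8f7 in TH females had a lowest, median and highest value of 0.362, 0.827 and 1.26 CPM on chow and 3.15, 5.04 and 6.39 CPM on HF. In TH males it was 0.726, 2.55 and 3.89 CPM on chow and 0.636, 1.31 and 2.65 CPM on HF. The female diets did not overlap for any of the 3 copies, beside 1.93% of all genes, while the male diets overlapped for all 3. As fitted values without a test of their own, the changes were 2.59, 2.48 and 2.12 (log2) in females and -0.71, -0.50 and -0.63 in males for Nat8f7, Nat8f3 and Nat8f6.

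That difference between the sexes passed the test. The male minus female diet response in TH at 5 weeks was -3.30 ± 0.69 (log2, SE) for Nat8f7, -2.98 ± 0.64 for Nat8f3 and -2.75 ± 0.70 for Nat8f6, with adjusted p values of 0.00286, 0.00380 and 0.0184 in the edgeR test. These 3 were the members called, beside 2.12% of all genes. Without replicate 2 of every group the adjusted p was 0.0511 for Nat8f3 and 0.139 for Nat8f6, and without replicate 4 it was 0.0783 for Nat8f6. Over all alternatives the adjusted p ran from 0.000520 to 0.0457 for Nat8f7, from 0.000416 to 0.0511 for Nat8f3 and from 0.000750 to 0.139 for Nat8f6.

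Averaged over the sexes, 1 of the copies was called in TH at 5 weeks, Nat8f3, at 0.99 ± 0.33 (log2, SE; adjusted p = 0.0374), beside 9.66% of all genes. Nat8f7 was at 0.94 ± 0.35 (adjusted p = 0.077) and Nat8f6 at 0.74 ± 0.36 (adjusted p = 0.21). Both were called when the compared groups were fitted alone, and Nat8f7 also without replicate 3. Over all alternatives their adjusted p ran from 0.0164 to 0.275 and from 0.0268 to 0.42. The Nat8f3 call was lost in 5 of 12 alternatives, with adjusted p values between 0.00360 and 0.180. The diet response of the copies was not called as different between TH and B6 at 5 weeks, with adjusted p values of 0.17, 0.28 and 0.31 for Nat8f7, Nat8f3 and Nat8f6 and differences of -1.55 ± 0.57, -1.21 ± 0.53 and -1.26 ± 0.57 (log2, SE), beside 1.35% of all genes called. In that comparison 5 of 6 members had an unadjusted p under 0.05, and none was called by edgeR or DESeq2. Nor was the response in TH called as different between 20 and 5 weeks for the copies, with differences of 1.24 ± 0.47, 1.10 ± 0.43 and 1.30 ± 0.48 and adjusted p values of 0.079, 0.098 and 0.073 in edgeR. Fitted on the compared groups alone, all 3 were called, with the lowest adjusted p of their alternatives, 0.0148, 0.0269 and 0.0157; the highest were 0.232, 0.283 and 0.227.

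The B6 livers at 20 weeks, which chose Nat8f7 and its neighbours, are described without a test. In B6 females Nat8f7 was between 0.148 and 0.340 CPM on chow, with a median of 0.238 CPM. On HF the lowest, median and highest were 0.345, 6.28 and 16.6 CPM, all above the chow females, beside 2.1% of all genes. A single HF female, the third, was at the chow level, and the other 5 were at 2.02 CPM or more. In B6 males the medians were 0.347 CPM on chow and 3.34 CPM on HF, with no overlap, beside 2.37% of all genes. Nat8f3 and Nat8f6 overlapped between the diets in B6 females, with the lowest HF female at 0.345 and 0.172 CPM and the highest chow female at 0.393 and 0.255 CPM. In B6 males Nat8f3 was separated and Nat8f6 overlapped, with 1.2 CPM as its lowest HF and 1.25 CPM as its highest chow value. The fitted changes were 4.77 (log2) in females and 2.89 in males for Nat8f7, 4.47 and 2.04 for Nat8f3, and 4.99 and 1.39 for Nat8f6.

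Sex differences of the copies had opposite signs in TH comparisons that differed in both diet and age. Whether they change with age was not tested. In TH mice on HF at 20 weeks the copies were lower in males: the male minus female difference was -1.69 ± 0.36 (log2, SE) for Nat8f7, -1.74 ± 0.34 for Nat8f3 and -1.44 ± 0.37 for Nat8f6, with adjusted p values of 0.000140, 3.39e-05 and 0.00183 (edgeR). In that comparison 5 of 6 members were called, beside 29.4% of all genes. In TH mice on chow at 5 weeks the copies were instead higher in males, by 1.58 ± 0.51, 1.42 ± 0.47 and 1.54 ± 0.51, with adjusted p values of 0.0322, 0.0416 and 0.0420. Here 4 of 6 members were called, beside 9.26% of all genes. The second set of calls was fragile: they were lost in 4, 6 and 5 of 12 alternatives for Nat8f7, Nat8f3 and Nat8f6, with adjusted p values reaching 0.204, 0.232 and 0.223 from lowest values of 0.0157, 0.0170 and 0.00638. In B6 on chow at 5 weeks no copy was called, with Nat8f7 at -0.91 ± 0.79 (adjusted p = 0.57). Those livers held few reads: per library, Nat8f7 had 2 to 12 in females and 0 to 5 in males. Nat8f3 had 3 to 11 and 0 to 6, and Nat8f6 had 1 to 6 and 0 to 5. With these groups fitted alone the copies did not pass the filter on low counts. A sex difference there could therefore be missed.

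The strain and sex differences on chow at 20 weeks, part of which led to Nat8f6, are described without a test. Nat8f6 had a median of 0.111 CPM in B6 females and 0.843 CPM in B6 males, and of 1.29 CPM in TH females and 0.870 CPM in TH males. The strains did not overlap in females, at 0.255 CPM or less against 0.916 CPM or more, and overlapped in males, where the fitted strain difference was 0.27 (log2) against 4.11 in females. The fitted strain-by-sex difference was -3.85 (log2) for Nat8f6, -2.87 for Nat8f3 and -2.41 for Nat8f7. At 5 weeks on chow, in other mice, the same difference was 1.08 ± 0.95 for Nat8f6 (adjusted p = 0.83), 2.01 ± 0.86 for Nat8f3 (adjusted p = 0.47) and 2.49 ± 0.93 for Nat8f7 (adjusted p = 0.34). None of the 6 members passed this test in edgeR, beside 0.313% of all genes, and DESeq2 called none either, while 2 had an unadjusted p under 0.05. The 5-week values for the copies thus had the opposite sign to the 20-week ones, and neither sign was tested against the other.

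Counts of the copies also differed between strains on chow at 5 weeks and between ages in TH on HF. TH livers had more of each copy than B6 livers on chow at 5 weeks: 1.89 ± 0.45 (log2, SE) for Nat8f7, 1.82 ± 0.42 for Nat8f3 and 1.77 ± 0.44 for Nat8f6, with adjusted p values of 0.000388, 0.000203 and 0.000710 (edgeR). In that comparison 5 of 6 members were called, beside 38.8% of all genes. On HF at 5 weeks the strain difference was 0.34 ± 0.33, 0.61 ± 0.32 and 0.51 ± 0.35, with no copy called by edgeR (adjusted p = 0.44, 0.11 and 0.25). Without replicate 1 Nat8f3 was called, with an adjusted p of 0.0148, and its highest was 0.412. TH mice on HF had more of the copies at 20 than at 5 weeks, by 1.95 ± 0.29, 1.91 ± 0.27 and 1.80 ± 0.30 (adjusted p = 1.84e-07, 5.40e-08 and 2.25e-06). There 4 of 6 members were called, beside 26.4% of all genes. TH mice on chow showed no called age change in the copies (adjusted p = 0.22, 0.11 and 0.44). The fitted changes by sex, given without a test, were 2.26, 2.23 and 1.81 (log2) in females and -0.84, -0.61 and -0.80 in males for Nat8f7, Nat8f3 and Nat8f6.

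Nat8f5 was the male member. On chow at 5 weeks it had a lowest, median and highest value of 0.633, 5.00 and 8.86 CPM in B6 males against 0, 0.259 and 0.493 CPM in B6 females, with no overlap, beside 1.97% of all genes with every male above every female. In TH mice of that age and diet the values were 11.3, 15.5 and 20.1 CPM in males and 0.550, 0.85 and 5.00 CPM in females, again with no overlap, beside 2.09% of all genes. Nat8f2 in B6 and Nat8f6 in TH were the other members separated this way. The male minus female difference was 4.34 ± 0.58 (log2, SE) in B6, a 20.3-fold difference (adjusted p = 1.98e-08), and 3.35 ± 0.42 in TH, 10.2-fold (adjusted p = 2.44e-09). The B6 size rests on few female reads, 0 to 6 per library against 5 to 93 in males. With the B6 groups fitted alone, Nat8f5 did not pass the filter on low counts. In B6 2 of 6 members were called for sex, beside 5.99% of all genes. A single TH female, the fifth, at 5.00 CPM, was well above the other 5, which reached 1.71 CPM.

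At 20 weeks on HF the contrast was wider. TH males had 3.56, 11.2 and 15.6 CPM as lowest, median and highest, and TH females 0, 0.158 and 0.226 CPM, which is 0 to 3 reads per library, with no overlap, beside 5.21% of all genes. The fitted difference was 6.26 ± 0.60 (log2, SE; adjusted p = 1.42e-14, edgeR), a size that rests on very few female reads. All 8 male groups ranked above all 8 female groups by median, but the highest TH female on chow at 5 weeks lay within the range of B6 males on chow at 5 weeks. In the order of all 16 groups, 14 of 15 neighbouring pairs overlapped. The pair that did not was TH females on chow at 5 weeks (0.550 CPM or more) above TH females on chow at 20 weeks (0.534 CPM or less).

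Diet lowered Nat8f5 in TH mice at 5 weeks, in both sexes. The change was -1.99 ± 0.38 (log2, SE; adjusted p = 5.35e-05, edgeR), a 3.98-fold lower level. TH males went from a median of 15.5 CPM on chow to 5.14 CPM on HF, and TH females from 0.85 to 0.214 CPM. Both sexes had every HF mouse below every chow mouse, beside 2.7% of all genes in males and 2.18% in females. In B6 at 5 weeks the change was -1.54 ± 0.62 (adjusted p = 0.065), and the DESeq2 test called it with an adjusted p of 0.00928, the lowest of its alternatives, whose highest was 0.187. In TH at 20 weeks it was -0.57 ± 0.49 (adjusted p = 0.43). Medians of Nat8f5 there were 8.29 CPM on chow and 11.2 CPM on HF in males and 0.398 and 0.158 CPM in females, with overlap in both sexes. The fitted changes by sex, without a test, had opposite signs, 0.21 (log2) in males and -1.36 in females.

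TH livers had more Nat8f5 than B6 livers at 5 weeks, by 2.14 ± 0.37 (log2, SE) on chow (adjusted p = 1.36e-06) and 1.69 ± 0.62 on HF (adjusted p = 0.0219). The HF call was lost without replicate 4 or replicate 6, and over all alternatives its adjusted p ran from 0.00160 to 0.0830. In that HF comparison 2 of 6 members were called, beside 43.4% of all genes. TH mice on chow had less Nat8f5 at 20 than at 5 weeks, by -1.42 ± 0.35 (adjusted p = 0.00382), one of 2 members called beside 9.16% of all genes. Without replicate 5, which includes the high TH female, the change was -0.93 and the adjusted p 0.140, the highest of its alternatives, whose lowest was 0.00176.

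**Figure D2:**
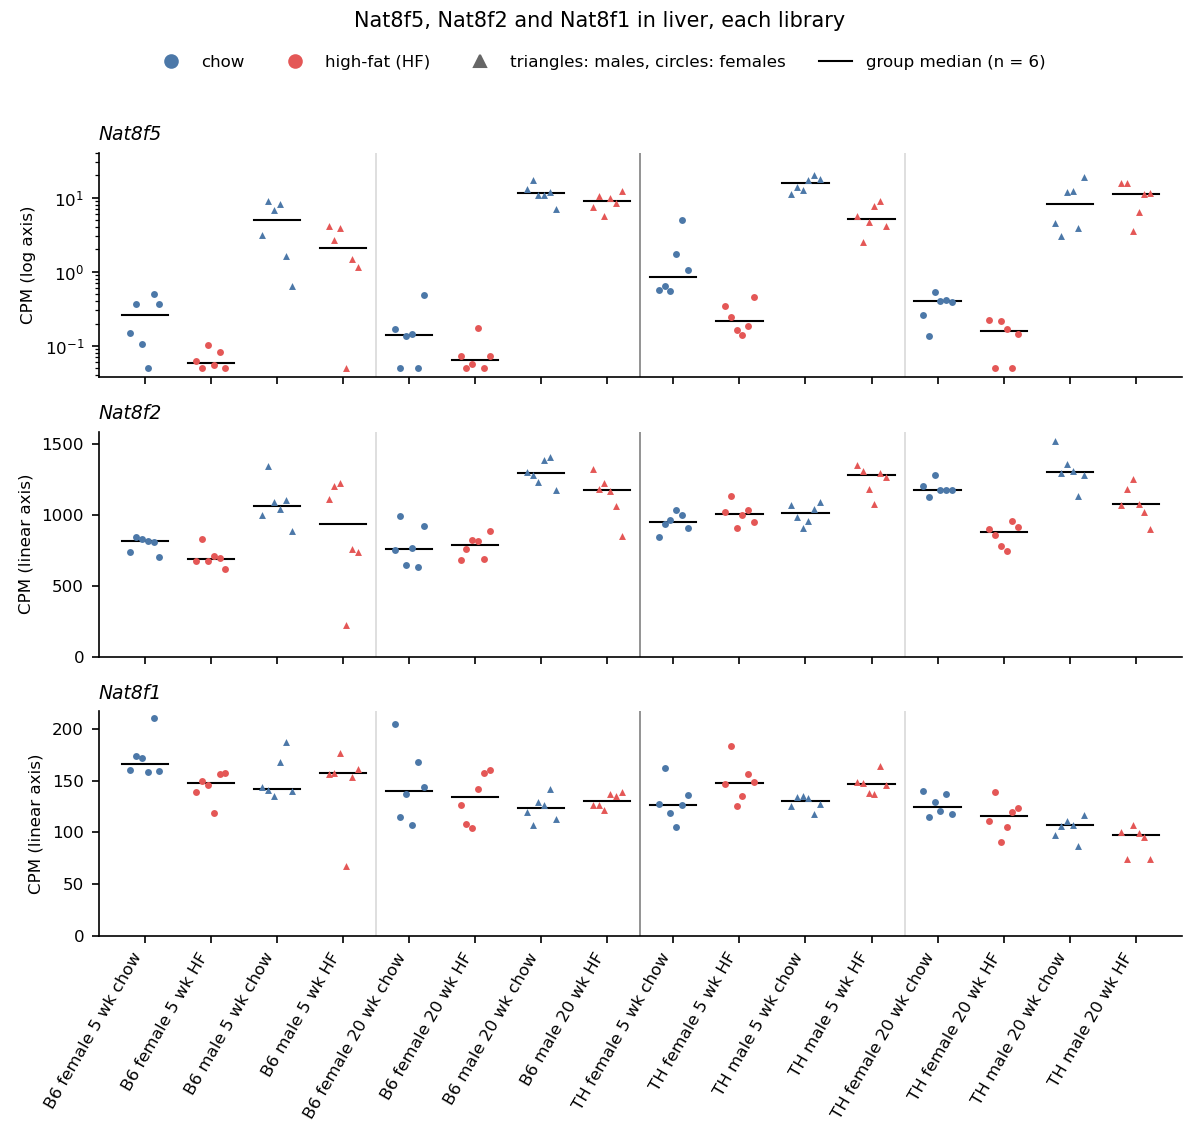
CPM of Nat8f5 (log axis, values of 0 drawn at 0.05), Nat8f2 and Nat8f1 (linear axes from 0) in each of 96 liver libraries, with a bar at the median of 6 mice. Male groups (triangles) hold the high Nat8f5 values, up to 20.1 CPM, while Nat8f2 and Nat8f1 stay in a narrow band apart from 1 B6 male on HF at 5 weeks, at 219.8 and 67.4 CPM.

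Nat8f2, the most abundant member, changed little. Its group medians ran from 686 CPM in B6 females on HF at 5 weeks to 1302 CPM in TH males on chow at 20 weeks. It fell on HF in TH mice at 20 weeks by 0.37 on the log2 scale (SE 0.10; adjusted p = 0.00332), a 1.29-fold lower level. TH females had 1129, 1178 and 1283 CPM as lowest, median and highest on chow and 743, 880 and 960 CPM on HF, with no overlap, beside 4.48% of all genes. TH males overlapped, at medians of 1302 and 1074 CPM. At 5 weeks the TH change was 0.21 ± 0.10 (adjusted p = 0.21), and the response at 20 weeks was lower than that at 5 weeks by 0.58 on the log2 scale (fitted -0.58 ± 0.14, adjusted p = 0.00465). In this difference of responses 2 of 6 members were called, beside 8.57% of all genes.

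Nat8f2 was also higher in males than in females of B6 on chow at 5 weeks, by 0.47 ± 0.14 (log2, SE; adjusted p = 0.0318), and of TH on HF at 20 weeks, by 0.37 ± 0.14 (adjusted p = 0.0429). These calls were lost in 6 and 5 of 12 alternatives, with adjusted p values from 0.000363 to 0.146 and from 0.00192 to 0.175. It was higher in TH than in B6 on HF at 5 weeks by 0.53 ± 0.10 (adjusted p = 9.62e-06) and higher at 20 than at 5 weeks in TH on chow by 0.36 ± 0.10 (adjusted p = 0.0132). The age call was lost without replicate 1 or replicate 3, and its adjusted p ran from 3.32e-05 to 0.0705.

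Nat8f1 moved least. Its group medians lay between 97.7 CPM in TH males on HF at 20 weeks and 166 CPM in B6 females on chow at 5 weeks, and all 15 neighbouring pairs in that order overlapped. It was lower in TH than in B6 on chow at 5 weeks, at -0.33 ± 0.09 (log2, SE; adjusted p = 0.00146, edgeR), and lower at 20 than at 5 weeks in TH on HF, at -0.53 ± 0.09 (adjusted p = 1.60e-06). No diet change of Nat8f1 was called in TH at 20 weeks (-0.16 ± 0.09, adjusted p = 0.18), in B6 at 5 weeks (-0.16 ± 0.09, adjusted p = 0.20) or in TH at 5 weeks (0.21 ± 0.09, adjusted p = 0.13) by edgeR over all groups. The TH change at 5 weeks was called when the compared groups were fitted alone, and over its alternatives the adjusted p ran from 0.0268 to 0.367. In TH males at 5 weeks it was nonetheless the single member with every HF mouse above every chow mouse (137 CPM or more against 135 CPM or less), beside 1.4% of all genes. In B6 females of that age it was separated the other way, with every HF mouse at 157.3 CPM or less and every chow mouse at 158.8 CPM or more, beside 4.2% of all genes. The difference between its TH responses at 20 and 5 weeks was -0.37 ± 0.12 (adjusted p = 0.0492), lost in 6 of 12 alternatives with adjusted p values from 0.0100 to 0.137.

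**Figure D3:**
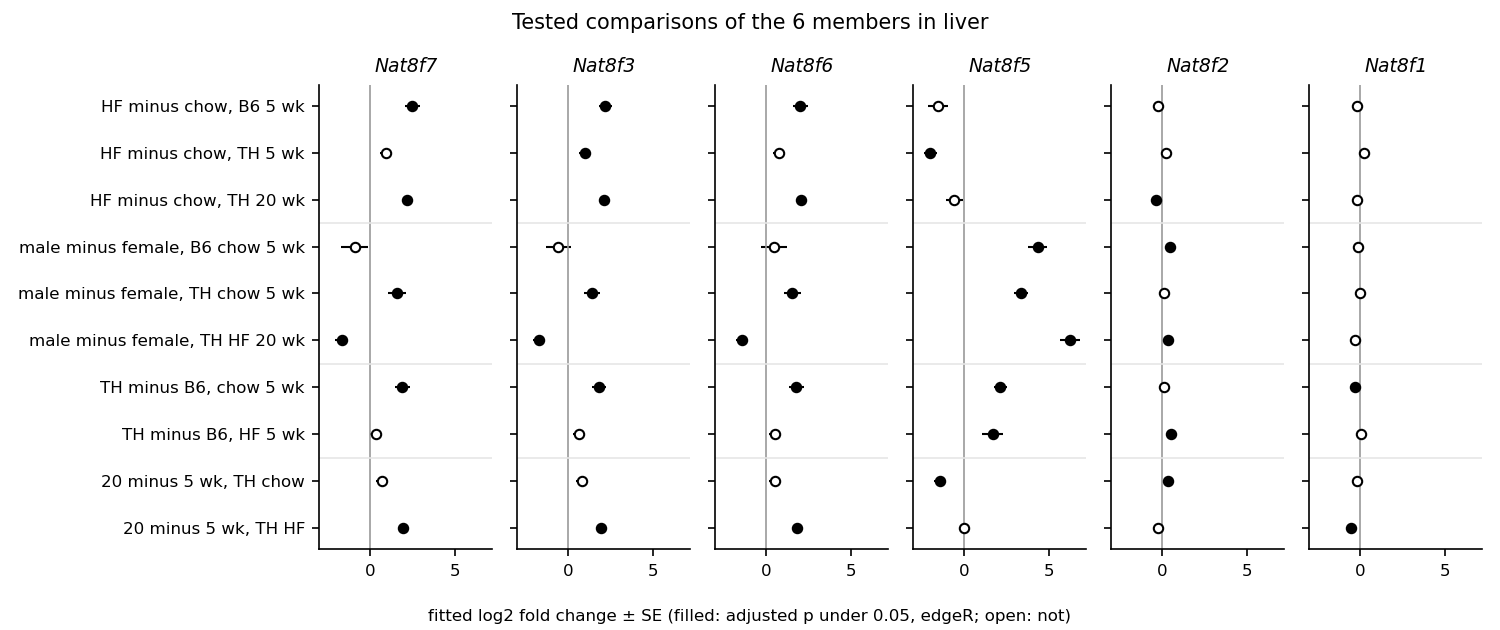
Fitted log2 fold change with its SE for the 6 members (columns) in 10 of the 15 tested comparisons (rows), filled where the adjusted p was under 0.05. The SE is the absolute change divided by the square root of its F statistic. It is unreliable near 0: for Nat8f5 in TH age on HF it was 0.079, against 0.446 by DESeq2. Nat8f7, Nat8f3 and Nat8f6 have similar profiles apart from the sex difference in B6, where Nat8f6 has the other sign and none is called. That difference rests on at most 12 reads of a copy per library. Nat8f5 is set apart by its sex differences of 3.35 to 6.26, and Nat8f2 and Nat8f1 lie close to 0.

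The 3 copies also rose and fell together from mouse to mouse. In libraries with 20 or more reads for each, the ratio of Nat8f7 to Nat8f3 reads had a median of 1.04 over 42 libraries (range 0.853 to 1.47). Raw Nat8f7 reads in these libraries spanned 3.74 log2 units, differences in library depth included. The ratio was 1.16 in 15 B6 libraries and 1.00 in 27 TH libraries. Nat8f6 to Nat8f3 had a median of 0.6 over 31 libraries, 0.713 in B6 and 0.560 in TH. The same mouse was highest for all 3 copies in 8 of 16 groups and lowest in 9 of 16. Over the 16 group means of log2 CPM, Pearson's r was 0.99 for Nat8f7 with Nat8f3, 0.97 for Nat8f7 with Nat8f6 and 0.99 for Nat8f3 with Nat8f6. These are descriptions, since the copies share sequence and therefore reads.

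A like relation held between Nat8f2 and Nat8f4, an abundant relative that is no member here. The ratio of Nat8f4 to Nat8f2 reads stayed between 0.0987 and 0.128 in all 96 libraries, with a median of 0.113. Raw Nat8f4 reads spanned 2.99 log2 units, which includes library depth and the library that stood apart, the one with the fewest. In CPM the Nat8f4 group medians differed 1.72-fold from lowest to highest, so the ratio was seen over a narrow range of levels. The ratio of Nat8f1 to Nat8f2, which share no 50-base stretch, ran from 0.0627 to 0.306. Nat8b-ps, a pseudogene in which 31.2% of 50-base stretches match Nat8f1, had a ratio to Nat8f1 of 0.114 in B6 and 0.147 in TH (medians of 48 libraries each). Nat8f5 shared no 50-base stretch with Nat8, and the ratio of Nat8 to Nat8f5 reads ran from 0.305 to 4.16 over 43 libraries.

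**Figure D4:**
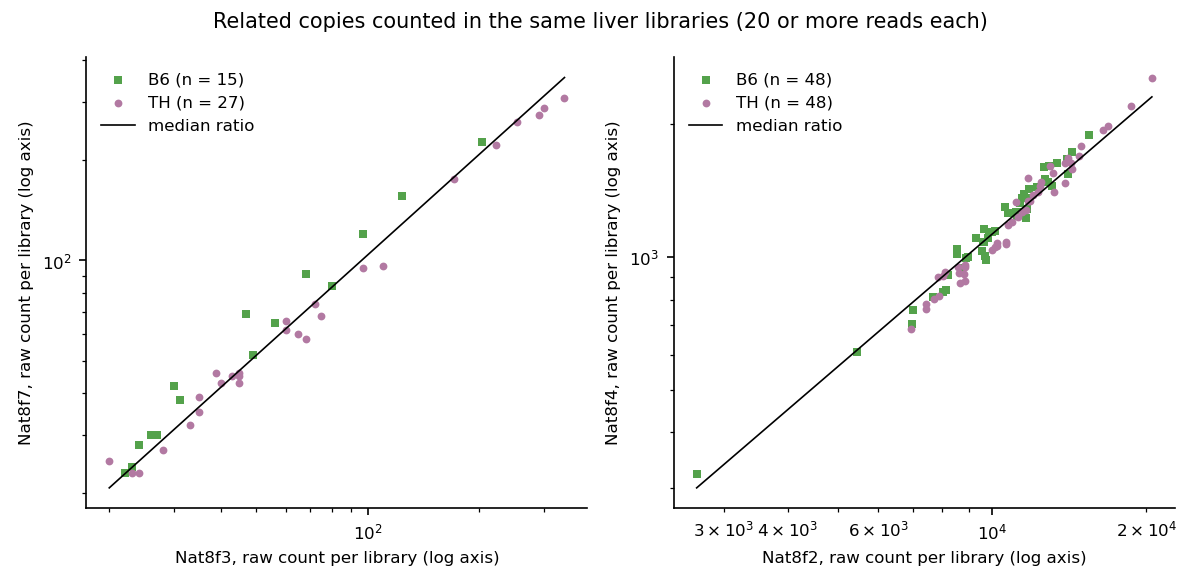
Raw read counts per liver library (log axes) of Nat8f7 against Nat8f3 (42 libraries) and of Nat8f4 against Nat8f2 (96 libraries), B6 as squares and TH as circles, with a line at the median ratio of 1.04 and 0.113. Points follow the line over the whole range in both panels, and most B6 points lie slightly above TH points for Nat8f7.

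The genes whose 16 group means were most like those of a member differed between the 3 patterns. For the copies they included Slc30a10, a manganese exporter, with r of 0.92 with Nat8f7 and 0.93 with Nat8f3 and Nat8f6. Nat8f7 was also close to Ppp1r3b (0.92), a subunit that targets a phosphatase to glycogen. Nat8f5 was closest to Mindy3 (0.97) and then to Elovl3 (0.96), an elongase with male predominance in mouse liver, with the urinary protein gene Mup7 at 0.95. Nat8f2 was closest to Nat8f4 (0.98) and Ube4a (0.94), and Nat8f1 to Arhgef37 (0.90). These values describe 16 points over 10729 genes compared, and the points share strain, sex, diet and age.

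Other genes of glutathione and mercapturic acid handling were more often called lower than higher on HF. The list held 40 genes, among them genes for glutathione synthesis, conjugation, trimming, transport and deacetylation. Of these 39 were in the table and 35 were tested. The list contains no acetylating enzyme, neither the 6 members nor Nat8. In TH at 20 weeks 1 rose and 19 fell, beside 13.6% of all genes higher and 12.6% lower. The median change was -0.24 (log2) against 0.01 over all genes. In B6 at 5 weeks 3 rose and 24 fell (median -0.36), beside 8.83% of all genes higher and 11.1% lower. At 5 weeks in TH 2 rose and 16 fell (median -0.17), beside 4.11% and 5.54% of all genes. Gsta2, a glutathione transferase, fell by 4.24 on the log2 scale in TH at 20 weeks (SE 0.36; adjusted p = 1.33e-16), and Cth, which makes cysteine from cystathionine, fell by 1.48 (SE 0.12; adjusted p = 4.26e-17). Acy1, an acylase that removes the acetyl group again, fell by 0.46 (SE 0.10; adjusted p = 0.000208), while Ggt5, a gamma-glutamyl cleaving enzyme, rose by 0.53 ± 0.16 (adjusted p = 0.00998).

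Nat8 itself, the family's namesake, fell on HF in TH at 20 weeks by 0.55 on the log2 scale (SE 0.13; adjusted p = 0.000996) and was higher in males than in females of TH on HF at 20 weeks by 2.14 ± 0.20 (adjusted p = 1.39e-15). Its median over 96 livers was 3.18 FPKM. The importer of acetyl-CoA into the endoplasmic reticulum, Slc33a1, was at -0.01 ± 0.06 in TH at 20 weeks (adjusted p = 0.91) and at 0.05 ± 0.06 in B6 at 5 weeks (adjusted p = 0.61). Of 6 genes listed in connection with acetylation in that compartment, 5 were tested. The list was not limited to enzymes that act there. In TH at 20 weeks 1 rose (Acly, 1.2 ± 0.22, adjusted p = 9.77e-06) and 1 fell (Nat8), beside 13.6% of all genes higher and 12.6% lower.

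The genes on either side of the cluster did not share the rise. Of 10 neighbours, 5 on each side, 6 were tested. None was called in TH at 20 weeks by edgeR (2 at an unadjusted p under 0.05), where Alms1, next to Nat8f7, was at 0.18 ± 0.12 (adjusted p = 0.28) and Tprkb, next to Nat8f1, at -0.17 ± 0.07 (adjusted p = 0.073). In B6 at 5 weeks 2 fell, Pradc1 by 0.28 (SE 0.10, adjusted p = 0.0365) and Cct7 by 0.13 (SE 0.04, adjusted p = 0.0258), and none rose. Of all genes, 11.1% were lower and 8.83% higher there.

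Markers of other cell types were read in the same livers. The 10 kidney markers together stayed between 0 and 1.14 CPM, with 8 of 10 at a median of 0 and Kap at 0 in every library, so kidney RNA was at or near 0. Macrophage markers moved with diet: all 4 rose in TH at 20 weeks, beside 13.6% of all genes. Their summed ranges there were 48.2 to 88.3 CPM on chow and 64.5 to 107.5 CPM on HF in females. In males they were 24.8 to 98.6 and 90.3 to 127.4 CPM. In B6 at 5 weeks 3 of 4 rose, beside 8.83% of all genes, Itgax the most at 1.02 ± 0.26 (adjusted p = 0.00284). In TH at 5 weeks 1 of 4 rose, beside 4.11% of all genes. All 4 were lower in TH than in B6 at 5 weeks, with a median difference of -0.81 (log2) on chow and -1.35 on HF. Of all genes, 20.1% and 21.7% were lower there. At 20 weeks 2 were higher than at 5 weeks in TH on HF, beside 13.4% of all genes. The 5 hepatocyte markers were all lower with age in TH on HF (median -0.35), beside 13% of all genes. Of 4 bile duct markers 1 rose with diet in TH at 20 weeks and 1 in B6 at 5 weeks, beside 13.6% and 8.83% of all genes. The part of these markers in the changes of the copies was not tested. Fat markers, 3 of 4 tested, were not called by edgeR in any of the 3 diet comparisons (1 at an unadjusted p under 0.05, in TH at 20 weeks), and their sum in TH females at 20 weeks was 0.194 to 4.72 CPM on chow and 0.364 to 4.68 CPM on HF. Of 14 genes listed as male-biased in liver, 12 were higher in B6 males and 11 in TH males on chow at 5 weeks, as was Nat8f5. Of all genes, 3.2% and 4.04% were higher in males there. Like Nat8f5, 11 and 12 of the 14 were higher in TH than in B6 at 5 weeks on chow and on HF, where 1 was lower in each. Of all genes, 18.7% and 21.7% were higher in TH there. Like Nat8f5, 10 were lower with age in TH on chow, beside 4.93% of all genes. With age in TH on HF 11 were lower, beside 13% of all genes, whereas Nat8f5 was at 0.003 (log2, adjusted p = 0.99, edgeR). In TH at 5 weeks 1 rose and 3 fell with diet, beside 4.11% and 5.54% of all genes. In TH at 20 weeks 3 rose and 5 fell, beside 13.6% and 12.6% of all genes, and Nat8f5 was not called. Of 14 genes listed as female-biased in liver, 14 were lower in males of TH on HF at 20 weeks, as were the copies. The share of all genes lower in males there was 15.1%. On chow at 5 weeks 13 were lower in TH males and 14 in B6 males, beside 5.21% and 2.78% of all genes. There the copies were higher in TH males and not called in B6. The part of both lists in the results was not tested. Pancreas and skeletal muscle markers reached 267 and 562 CPM in single libraries, with 4 of 5 markers of each at a median of 0. On HF in B6 at 5 weeks, where the copies rose, 4 of 5 pancreas and 5 of 5 muscle markers were called lower. The share of all genes called lower there was 11.1%. The pancreas and muscle sums in B6 females were 0.484 to 58.9 and 0.0737 to 313 CPM on chow and 0.104 to 0.652 and 0.189 to 0.652 CPM on HF. In B6 males they were 0.345 to 32.7 and 0 to 113 CPM on chow and 0.0951 to 0.748 and 0.169 to 0.598 CPM on HF. All 5 muscle markers were lower in males than in females of TH on chow at 5 weeks (0 to 5.08 against 0.521 to 393 CPM), beside 5.21% of all genes. All 5 pancreas markers were lower in TH than in B6 on chow at 5 weeks, beside 20.1% of all genes. In TH on HF at 20 weeks 4 were lower in males than in females, beside 15.1% of all genes. The part of the pancreas and muscle markers in the results was not tested.

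Outside liver, the family was low with 2 exceptions. Nat8f2 reached at most 4.57 CPM in any library of fat, soleus or pancreas. Nat8f1 was counted in all of those libraries, with medians of 13.6 CPM in pancreas, 2.32 CPM in fat and 1.15 CPM in soleus. The copies were present in gonadal fat, and there the strains stood apart. Nat8f3 in TH females on HF at 20 weeks had a lowest, median and highest value of 8.36, 11 and 20.4 CPM in fat, against 0.520, 1.40 and 2.51 CPM in B6 females. In males on HF at 20 weeks it was 3.46, 4.90 and 8.35 CPM in TH and 0, 0.226 and 0.832 CPM in B6.

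Every TH mouse lay above every B6 mouse for Nat8f7 in fat in all 8 combinations of sex, diet and age, and for Nat8f3 and Nat8f6 in 6 of them. The exceptions were chow females at 20 weeks and chow males at 5 weeks, where 5.5% and 1.64% of all genes had such a separation. The share was 2.69% in chow females at 5 weeks, 3.83% in HF females at 5 weeks, 3.97% in HF females at 20 weeks, 2.06% in HF males at 5 weeks, 5.31% in chow males at 20 weeks and 3.6% in HF males at 20 weeks. These are descriptions of 6 mice a group, without a test, in tissue that lay outside the planned comparisons. Many fat and liver libraries of a group carry the same number in their column names, so the fat values may come largely from the same mice. In fat libraries with 20 or more reads for each, the ratio of Nat8f7 to Nat8f3 was 0.793 over 40 libraries (range 0.634 to 1.00), so the fat values do not repeat the liver ratio of 1.04. In TH fat at 20 weeks the median of Nat8f3 was 5.18 CPM on chow and 11 CPM on HF in females, and 6.12 and 4.90 CPM in males, and the diets overlapped in both sexes. Nat8f7 had medians of 4.04 and 8.59 CPM in females and 4.81 and 3.64 CPM in males.

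**Figure D5:**
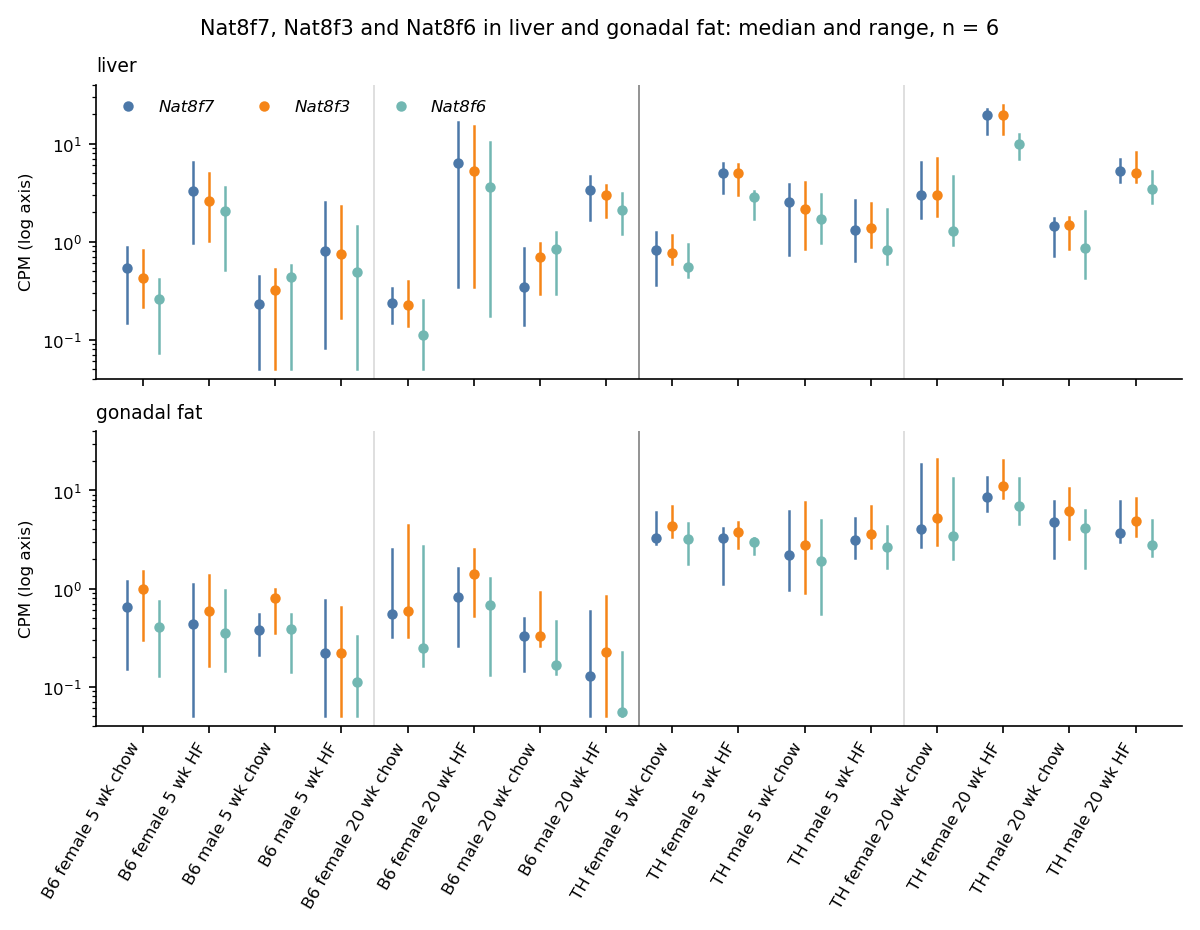
Group median (point) and range (line) of Nat8f7, Nat8f3 and Nat8f6 in CPM (log axis, values under 0.05 drawn at 0.05) for 16 groups of 6 mice in liver and in gonadal fat. In fat the TH medians of Nat8f3, from 2.78 to 11 CPM, all lie above the B6 medians, from 0.222 to 1.40 CPM, whereas in liver the medians of the strains overlap.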

How the data were processed

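Poly(A) RNA-seq of 96 mouse livers (with the fat, soleus and pancreas libraries for levels alone) was analysed from the deposited gene counts, whole numbers that the authors left unnormalized. The deposited FPKM values, scaled by the authors for library and gene length, were used for levels between genes alone. HISAT2 2.2.1 and Trimmomatic 0.39 appear in the submitters' processing notes, as do DESeq, DESeq2, SAMtools and the build GRCm39. The counter, strand setting, annotation and treatment of reads fitting several genes were not given in the sources used here. Libraries were stranded, per the labels' protocols.

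Symbols came from a table of Ensembl names (52073 of 56980 matched). The liver model had 1 mean for each of 16 groups, TMM scaling and the edgeR default filter (minimum count 10), fitted with edgeR 4.0.16 in R 4.3.3 and tested by quasi-likelihood F tests in 15 comparisons. A call is an adjusted p under 0.05 (Benjamini-Hochberg over 17243 genes). Each edgeR SE is the absolute fitted change divided by the square root of its F statistic, which is unreliable for changes near 0. Alternatives were RLE scaling, no filter, the replicate block, each replicate left out, the compared groups alone and DESeq2 1.42.0; leaving out the library that stood apart was added after seeing the data. On data simulated for the TH diet comparison at 20 weeks (17133 genes), 86 of 100 genes changed by 1 on the log2 scale were found and 60 of 100 changed by 0.5. Of 153 genes called, 7 were unchanged. The changed genes were drawn at random from all tested genes, with a spread set by the trend over expression level. These rates therefore do not give the chance of finding a change in a member with few reads. The members and gene lists were chosen with earlier results of these data known, and all 6 members are named. Promoter windows are RefSeq's (GRCm38.p6) and all 6 members matched by symbol. Replicate numbers did not pair mice across groups.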

Additional observations from a re-analysis of the deposited data

Results flagged for a closer look

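In 5 of 96 sets of 6 mice (6 members in 16 groups), 1 mouse lay far from the other 5, where chance gives about 1 in 20. Nat8f1 was at 210.6 CPM in the fifth B6 female on chow at 5 weeks, against 173.8 CPM for the next mouse, and at 67.4 CPM in the fourth B6 male on HF at 5 weeks, against 153.5 CPM. The latter is the library that stood apart over all genes. Nat8f5 was at 0.480 CPM in the sixth B6 female on chow at 20 weeks, against 0.170 CPM, and at 5.00 CPM in the fifth TH female on chow at 5 weeks, against 1.71 CPM. Nat8f6 was at 2.03 CPM in the sixth TH male on chow at 20 weeks, against 1.03 CPM.

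Diet responses differed between the sexes of TH at 5 weeks for the 3 copies by an interaction test: male minus female, -2.98 (log2) for Nat8f3, -2.75 for Nat8f6 and -3.30 for Nat8f7. They differed between ages in TH for Nat8f2, by -0.58 (20 minus 5 weeks), and for Nat8f1, by -0.37.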

How the results depend on the processing

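Across the alternatives, 1000 of 1076 values for single members and 149 of 180 counts of members kept their direction and side of the threshold. RLE scaling changed no call and no sign. Without the filter on low counts, the members called numbered 1 in TH diet at 5 weeks (main 2), 1 in B6 sex (main 2), 1 in TH sex at 5 weeks (main 4) and 1 in the TH diet difference between ages (main 2). With the compared groups alone they numbered 6, 1, 4 and 5 in those comparisons. In B6 sex, Nat8f5 and the 3 copies did not pass the filter in that setting, so they were not tested and are absent from the 1076 values. The count of 1 there is thus no loss of a tested call. Over all genes, 366 were called for the TH diet difference between sexes at 5 weeks, against 231 without the filter and 88 without replicate 3. Leaving out each replicate in turn gave ranges of 1 to 3 for TH diet at 5 weeks, 1 to 3 for strain on HF, 1 to 2 for B6 sex, 1 to 4 for TH sex at 5 weeks, 1 to 2 for TH age on chow, 1 to 3 for the TH diet difference between sexes and 1 to 2 for that between ages. The cause was not tested.

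Signs turned for values that were not called, all fitted log2 differences. With each replicate left out, Nat8f1 ran from -0.037 (without replicate 4) to 0.10 in the HF strain difference, and from -0.040 to 0.085 in TH sex at 5 weeks, at -0.012 without replicate 3. Nat8f5 in TH age on HF ran from -0.12 to 0.16, at -0.037, -0.067 and -0.0045 without replicates 2 to 4. The B6 diet difference between sexes ran from -0.26 to 0.058 for Nat8f2 and from -1.06 to 0.14 for Nat8f7, and the TH one from -0.043 to 0.041 for Nat8f1. Without the library that stood apart, Nat8f1 in the HF strain difference was -0.034 and Nat8f2 in the B6 diet difference between sexes 0.075. Nat8f1 in TH sex at 5 weeks was -0.0032 without the filter, and Nat8f5 in TH age on HF -0.037 by DESeq2.

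Pairing by replicate number had no support: over 36 pairs of groups, same-numbered mice had a median correlation of 0.0085 (-0.15 to 0.22). The replicate block changed none of the 15 counts and none of the 90 calls. Depth limits Nat8f5 in females and the copies in B6 on chow, where single libraries held no read or a few, and shared reads limit the 3 copies.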
